A study of Drosophila melanogaster with 6 samples.

Results

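The genes described here are the core autophagy genes of Drosophila melanogaster: the kinase complex that starts the process (Atg1, Atg13, Atg17), the membrane proteins Atg9 and Atg18a, the conjugation genes Atg5, Atg7, Atg8a and Atg8b, and the cargo receptor ref(2)P. They were selected by symbol as genes of the pathway, at a time when earlier results of these data were known, and 9 of the 10 were matched among the 13216 rows of the table. Atg8b was not analysed here. RNA came from ovaries of females aged 1 to 3 days, which had been collected at 0 to 2 days and kept on wet yeast for 24 hours, with stocks held at 25 °C. The 3 wild type libraries came from the white-eyed stock wBerlin. The 3 GCNA null libraries came from a stock with a null allele of Gcna, made by CRISPR with a knock-in that knocks the gene out, and outcrossed to wBerlin over 10 generations. The product of Gcna is a protein of germ cell nuclei. Parts of the founder chromosomes that outlasted the outcrossing would differ between the stocks as well.

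Autophagy encloses cytoplasm in a double membrane, the autophagosome, and delivers it to the lysosome. The Atg1 kinase complex starts the membrane, a lipid kinase marks it, Atg9 and the Atg18 proteins help it to grow, and a pair of ubiquitin-like conjugation reactions attach Atg8 to it. In the fly ovary autophagy is known from egg chambers that degenerate under poor nutrition and from the removal of nurse cells late in oogenesis. Atg8a and Ref(2)P proteins are themselves degraded by autophagy. The RNA levels given here do not report how much autophagy takes place.

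Reads counted per library ranged from 38401723 to 55758180, and each of the 9 genes had between 1113 and 15806 reads in every library. Values are normalized counts, the reads of a gene divided by a size factor of its library. The reads of GCNA null replicates 1 and 2 were nearly alike (chi-square per degree of freedom 1.73, against 29.4 to 110.4 for the other pairs within a group), slightly beyond sampling noise, so both were averaged and counted as 1 sample. Means ± SD are therefore over 3 wild type and 2 GCNA null samples. The labels do not state whether replicates were dissected from different flies. The p-values therefore rest on the spread between these samples alone, and that spread may be technical. Normalized counts of the targeted gene, listed as CG14814, were 18292 to 20676 in wild type libraries and 428 to 520 in those labelled GCNA null. Germline and follicle cell markers were abundant in every library, as the ovary label says. Normalized counts of vas were 18171 to 21868 in wild type and 14974 to 16753 in GCNA null libraries. Those of Yp1 were 270548 to 332138 and 193969 to 319958.

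Of the 9 autophagy genes, 1 rose in GCNA null ovaries and none fell (limma, Benjamini-Hochberg adjusted p under 0.05 over all rows). The gene that rose was Atg8a, the ubiquitin-like protein that is coupled to the autophagosome membrane. By the same rule 6.37% of the 10132 rows tested were called, 4.25% as higher and 2.11% as lower, so a count of 1 in 9 is no result about the group. The other 8 genes had log2 differences between -0.04 and 0.20. By sign, 8 of the 9 genes and 49.9% of all rows had a positive difference. Among the 5748 rows with a mean of at least 1000 normalized counts, as all 9 genes have, 4.85% were called. The median log2 difference was 0.10 over the 9 genes and -0.00045 over all rows tested, and the median absolute difference was 0.10 and 0.14. The 3 wild type libraries did not overlap the 3 GCNA null libraries for 4 of the 9 genes, a separation seen in 38.9% of all rows tested. Before adjustment, 3 of the 9 genes had p under 0.05, against 23.1% of all rows. With all 6 libraries as separate samples 2 of the 9 were called, Atg8a and Atg18a, beside 16.6% of all rows, and the same 2 were called with DESeq2, beside 12.8%.

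**Figure D1:**
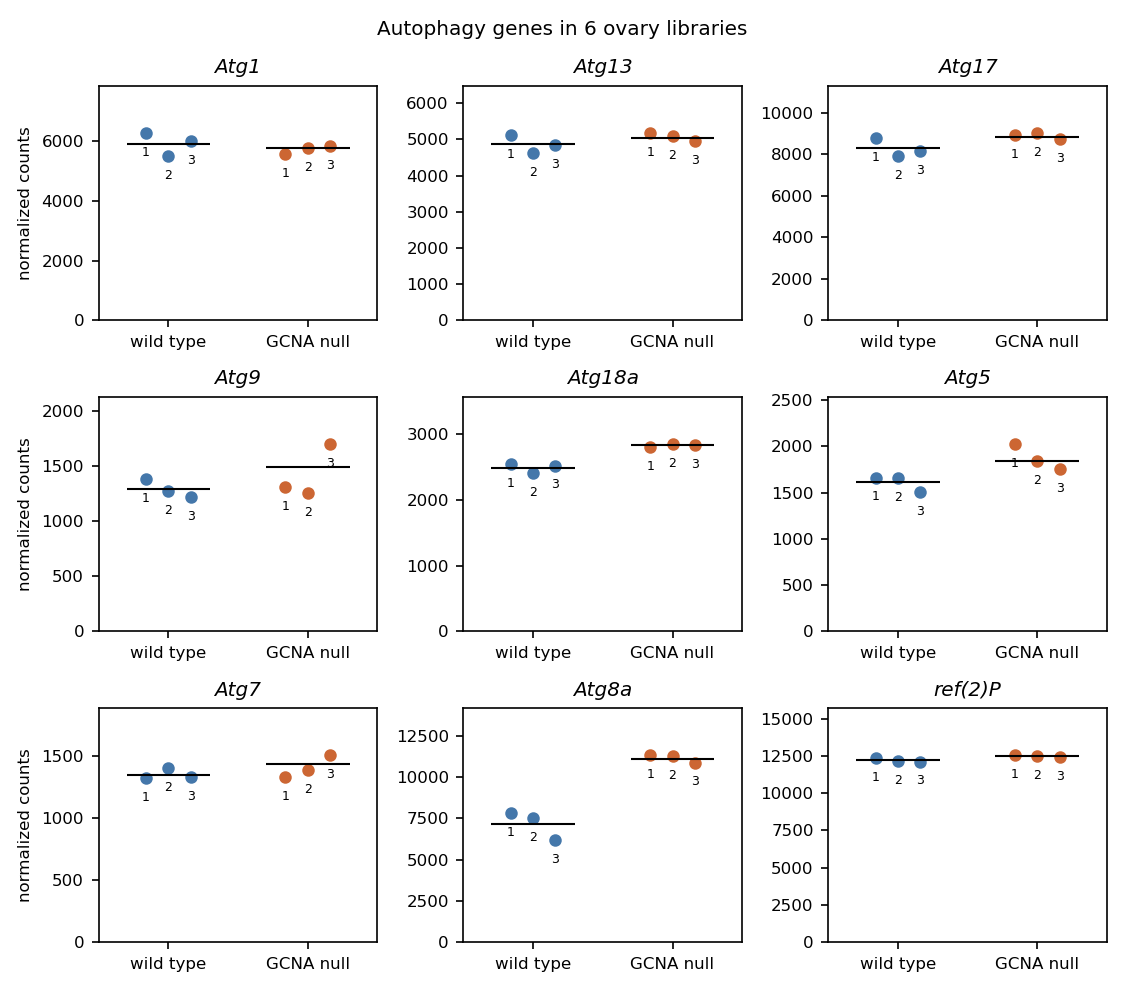
Normalized counts (y axis, starting at 0) of the 9 autophagy genes in each library, with the replicate number under each point and the mean of the samples used in the test as a line. For Atg8a the 3 GCNA null libraries (10875 to 11340) lie above the 3 wild type libraries (6166 to 7834), whereas for most other genes the groups lie at nearly the same height.

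The conjugation genes held the one change. In replicates 1 to 3, normalized counts of Atg8a were 7834, 7544 and 6166 for wild type and 11340, 11246 and 10875 for GCNA null ovaries. All 3 GCNA null libraries were above all 3 wild type libraries, by 1.39-fold for the closest pair and 1.84-fold for the most distant, and wild type replicate 3 was the lowest. Its wild type mean of 7182 ± 892 stood against 11084 ± 296, which gave a log2 difference of 0.63 (SE 0.11, 95% interval 0.38 to 0.89, limma adjusted p = 0.024). The call was lost without wild type replicate 2 (adjusted p = 0.059), without GCNA null replicate 3 (0.065) and without GCNA null replicates 1 and 2 (0.15), at log2 differences of 0.67, 0.66 and 0.61. In bulk RNA, more cells that express a gene and more RNA per cell cannot be told apart.

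The same Atg8a values can be set against other genes within a library, where no size factor enters. Atg8a supplied 16.6%, 17.0% and 14.1% of the reads of the 9 genes in wild type ovaries, and 22.2%, 22.1% and 21.5% without Gcna. Its ratio to ref(2)P, whose groups differed by 2.13% in their means, was 0.633, 0.622 and 0.509 in the wild type samples, against 0.903, 0.902 and 0.876 where Gcna was lost. Neither measure overlapped between the groups, but both reuse the Atg8a values above and are no separate support. Between a GCNA null and a wild type library Atg8a differed by at least 1.39-fold and ref(2)P by at most 1.04-fold. Atg8a is X-linked (10764878 to 10768338 on the minus strand, dm6), 8.90 Mb from Gcna, and no other annotated gene overlaps it. Its 3 annotated transcripts are counted together. Within 100 kb of it 21 other rows were tested. None was called with limma and 1 with DESeq2, beside 6.37% and 12.8% of all rows. An unadjusted limma p under 0.05 was found for 4 of the 21, beside 23.1% of all rows. The median log2 difference of the 21 rows was -0.04.

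Several cell type markers differed among the libraries beside this change. Over all rows 6.37% were called with limma and 12.8% with DESeq2, and 23.1% had an unadjusted limma p under 0.05. The groups did not overlap in 38.9% of all rows tested, so the marker counts here are no result about a cell type. The summed normalized counts of 6 follicle cell markers were 1063953 to 1315334 in wild type, 657616 and 631617 in GCNA null replicates 1 and 2, and 1204551 in replicate 3, with 0 of 6 called by limma, 2 at an unadjusted p under 0.05 and 1 called by DESeq2. These 2 had opposite signs, with log2 differences of -0.76 for Vm26Aa and 0.45 for Fas3, and Fas3 was higher in every GCNA null library (2710 to 3045 normalized counts) than in any wild type library (1819 to 2362). Hemocyte markers summed to 138 to 255 in wild type and to 521, 551.5 and 292 in GCNA null libraries, above wild type in all 3. Of the 3 listed 2 had a row, and Hml made up most of the sum. Of the 2 tested none was called by limma, 1 (Hml, log2 difference 1.04) had an unadjusted p under 0.05, and 1 was called by DESeq2. The other, NimC1, overlapped between the groups (19.6 to 38.1 in wild type, 33.2 to 54.4 in GCNA null libraries, log2 difference 0.39). Sums of the muscle, fat body and nervous system markers set GCNA null replicates 1 and 2 apart from replicate 3. The CV of Atg8a over these 3 libraries was 2.21%, with the nearly alike replicates 1 and 2 counted apart. Germline markers summed to 161280 to 186402 in wild type and 152579 to 155695 in GCNA null libraries. Of these 5 markers 0 were called by limma, 2 had an unadjusted limma p under 0.05 and 2 were called by DESeq2. The 2 with this p were vas and otu, both lower in every GCNA null library, at log2 differences of -0.34 and -0.34. For nos, osk and aub the log2 differences were -0.09, -0.13 and 0.03. Testis markers summed to 284 to 319 and to 619 to 725 normalized counts. Of the 10 testis markers 6 had a row, 4 were tested, 3 had an unadjusted p under 0.05 and 2 were called higher, aly and RpL22-like. RpL22-like alone went from 4.23 to 5.61 to 311 to 404 normalized counts and made up most of the difference in the sum. The other 2 tested were mia, lower in every GCNA null library (110 to 129 against 154 to 170, log2 difference -0.43), and Rpt3R (log2 difference -0.05). aly, a regulator of spermatocyte transcription, had no read in wild type replicate 3, and can, another spermatocyte gene, had none in wild type replicate 2. The part of these groups of cells or transcripts in the result for Atg8a was not tested.

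Atg5 and Atg7, which act on the same pathway of conjugation, did not pass. Atg5, which is joined to Atg12 and helps to attach Atg8 to lipid, had 1664, 1662 and 1507 normalized counts in wild type and 2028, 1846 and 1756 in GCNA null libraries. The GCNA null libraries were all higher, replicate 3 by the least. The log2 difference of Atg5 was 0.20 (SE 0.08, 95% interval 0.01 to 0.39, limma adjusted p = 0.21). Atg5 lies on the X chromosome at 7314622 to 7323770 (minus strand), within the spans of the non-coding RNA CR44357 and of CG1677, both on the same strand, and shares no exon with either. CG1677 had 16260 to 18386 normalized counts in wild type and 15828 to 16874 in GCNA null libraries (log2 difference -0.09, limma adjusted p = 0.51). Of 12 other rows tested within 100 kb of Atg5, 4 were called, all higher, while 5.58% of the rows tested on the X chromosome were called in either direction. The median log2 difference of these 12 rows was 0.21, but they ranged from -0.32 (brk) to 2.27 (CG42705, at most 205 normalized counts in a library). The nearest tested rows on either side of the Atg5 span were brk and Dok, the latter at a log2 difference of 0.05. These rows were named after their values were seen, and what the 12 rows share was not tested. CR44357, chosen after its values were seen, was among the 4. It had a log2 difference of 1.58 (limma adjusted p = 0.033) and at most 65.6 normalized counts in a library. Atg7, the activating enzyme for both Atg8 and Atg12, had 1319, 1400 and 1330 normalized counts in wild type and 1330, 1389 and 1508 in GCNA null libraries. The groups overlapped, and the log2 difference of Atg7 was 0.09 (95% interval -0.10 to 0.27).

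The 3 genes of the initiation complex lay close to their wild type levels. Atg1, the kinase, had 6264, 5483 and 5977 normalized counts in wild type and 5572, 5772 and 5819 in GCNA null libraries. Every GCNA null value of Atg1 fell inside the wild type range, and its log2 difference was -0.04 (95% interval -0.21 to 0.13). Atg13, the partner that regulates the kinase, had 5128, 4631 and 4850 in wild type and 5182, 5098 and 4956 in GCNA null libraries. Those groups overlapped too, at a log2 difference of 0.05 (95% interval -0.10 to 0.20). Atg17, the fly counterpart of the scaffold protein FIP200, had 8798, 7912 and 8143 in wild type and 8905, 9024 and 8718 in GCNA null libraries. Of the 9 pairs of a GCNA null with a wild type library, Atg17 was higher in the GCNA null library in 8, with a log2 difference of 0.10 (95% interval -0.06 to 0.25).

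The genes that supply and shape the membrane differed in their spread. Atg9, a membrane-spanning protein carried on vesicles to the growing autophagosome, had 1381, 1274 and 1213 normalized counts in wild type and 1309, 1254 and 1698 in GCNA null libraries. GCNA null replicate 3 stood above every other library, and replicates 1 and 2 lay inside the wild type range. The log2 difference of Atg9 was 0.20 (SE 0.13, limma adjusted p = 0.41), and it was -0.0066 without GCNA null replicate 3. Atg18a, a WD-repeat protein that binds the lipid made by the class III PI3 kinase, had 2547, 2401 and 2520 normalized counts in wild type and 2795, 2849 and 2836 in GCNA null libraries. Its groups did not overlap. Its CV was 3.12% in wild type and 1.00% over the 3 GCNA null libraries, with the nearly alike replicates 1 and 2 counted apart. The log2 difference of Atg18a was 0.18 (SE 0.06, 95% interval 0.05 to 0.32, limma adjusted p = 0.12), with an adjusted p of 0.028 with 6 separate samples and 0.041 with DESeq2.

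ref(2)P, the fly counterpart of p62, binds ubiquitinated cargo and Atg8a. It had 12373, 12130 and 12115 normalized counts in wild type and 12563, 12471 and 12414 in GCNA null libraries. The GCNA null values were all higher, the closest pair by 1.00-fold and the most distant by 1.04-fold. The log2 difference of ref(2)P was 0.03 (95% interval -0.10 to 0.16, limma adjusted p = 0.77). ref(2)P had the smallest CV of the 9 genes in both groups, 1.19% and 0.60%. Atg8a had the largest in wild type (12.4%) and Atg9 the largest in the GCNA null libraries (17.0%). These GCNA null CVs also count the nearly alike replicates 1 and 2 apart. ref(2)P was also the one gene of the 9 that shared exon sequence with another annotated gene, 173 bp with CG10337 on the opposite strand.

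Per kb of annotated exon the levels of the 9 genes covered an 11.2-fold range in wild type. ref(2)P stood highest at 5096 ± 60.7 normalized counts per kb (SD, n = 3), then Atg8a at 4237 ± 526. Atg13, Atg1, Atg17 and Atg5 followed at 1622, 1424, 1314 and 1136 per kb, and Atg18a, Atg7 and Atg9 at 851, 563 and 455. The median over 9814 rows tested that have an exon length was 759 per kb. In this order the wild type libraries of neighbouring genes overlapped for Atg1 and Atg17 and for no other neighbours. ref(2)P was above Atg8a in all 3 wild type libraries, and in GCNA null libraries Atg8a was above ref(2)P, at 6416 to 6690 against 5183 to 5245 per kb. Atg1 and Atg17, whose levels overlapped, also changed places.

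**Figure D2:**
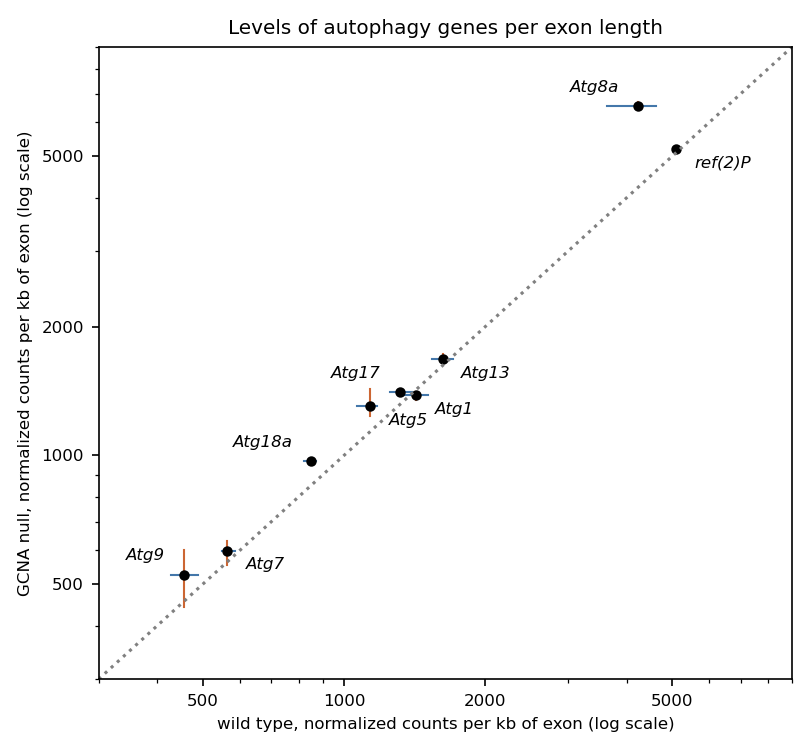
Mean level per kb of exon in wild type (x axis) and GCNA null ovaries (y axis), both on log scales, for the 9 autophagy genes, with bars from the lowest to the highest library and equality dotted. Atg8a (4237 and 6539 per kb) lies farthest above the dotted line, and ref(2)P (5096 and 5205) lies almost on it.

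The rest of the pathway was followed in 54 further genes, of which 52 had a row and were tested. Of these, 2 rose and none fell (limma, adjusted over all rows), a share of 3.85% beside 6.37% of all rows, so the count is no result about the pathway. By sign, 32 had a positive and 20 a negative log2 difference, and the median was 0.05. Rab7, the small GTPase of late endosomes and lysosomes that autophagosomes need for fusion, had 5347, 5474 and 4762 normalized counts in wild type and 7179, 7028 and 6804 in GCNA null libraries. The groups did not overlap, and its log2 difference was 0.42 (SE 0.07, limma adjusted p = 0.026), with the call lost without wild type replicate 1 (0.064) or 3 (0.055), without GCNA null replicate 3 (0.065) or without replicates 1 and 2 (0.17). bchs, a large BEACH-domain protein that links protein aggregates to autophagy, had 728, 787 and 821 in wild type and 1032, 994 and 1026 in GCNA null libraries. The log2 difference of bchs was 0.39 (SE 0.09) at a limma adjusted p of 0.0499, and this p lay between 0.0028 and 0.21 under the other settings, over 0.05 in 11 of 19. Rab7 lies on chromosome 3R at 23993008 to 23995452 and bchs on 2L at 5907169 to 5922776, both on the plus strand. As with Atg8a, the germline, hemocyte and testis marker sums given above also separated the groups, while the other marker sums did not. Such a separation was seen in 38.9% of all rows tested. Hml made up most of the hemocyte sum, and RpL22-like most of the difference in the testis sum. Among the 5 germline markers only vas and otu separated the groups. The part of these markers was not tested.

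**Figure D3:**
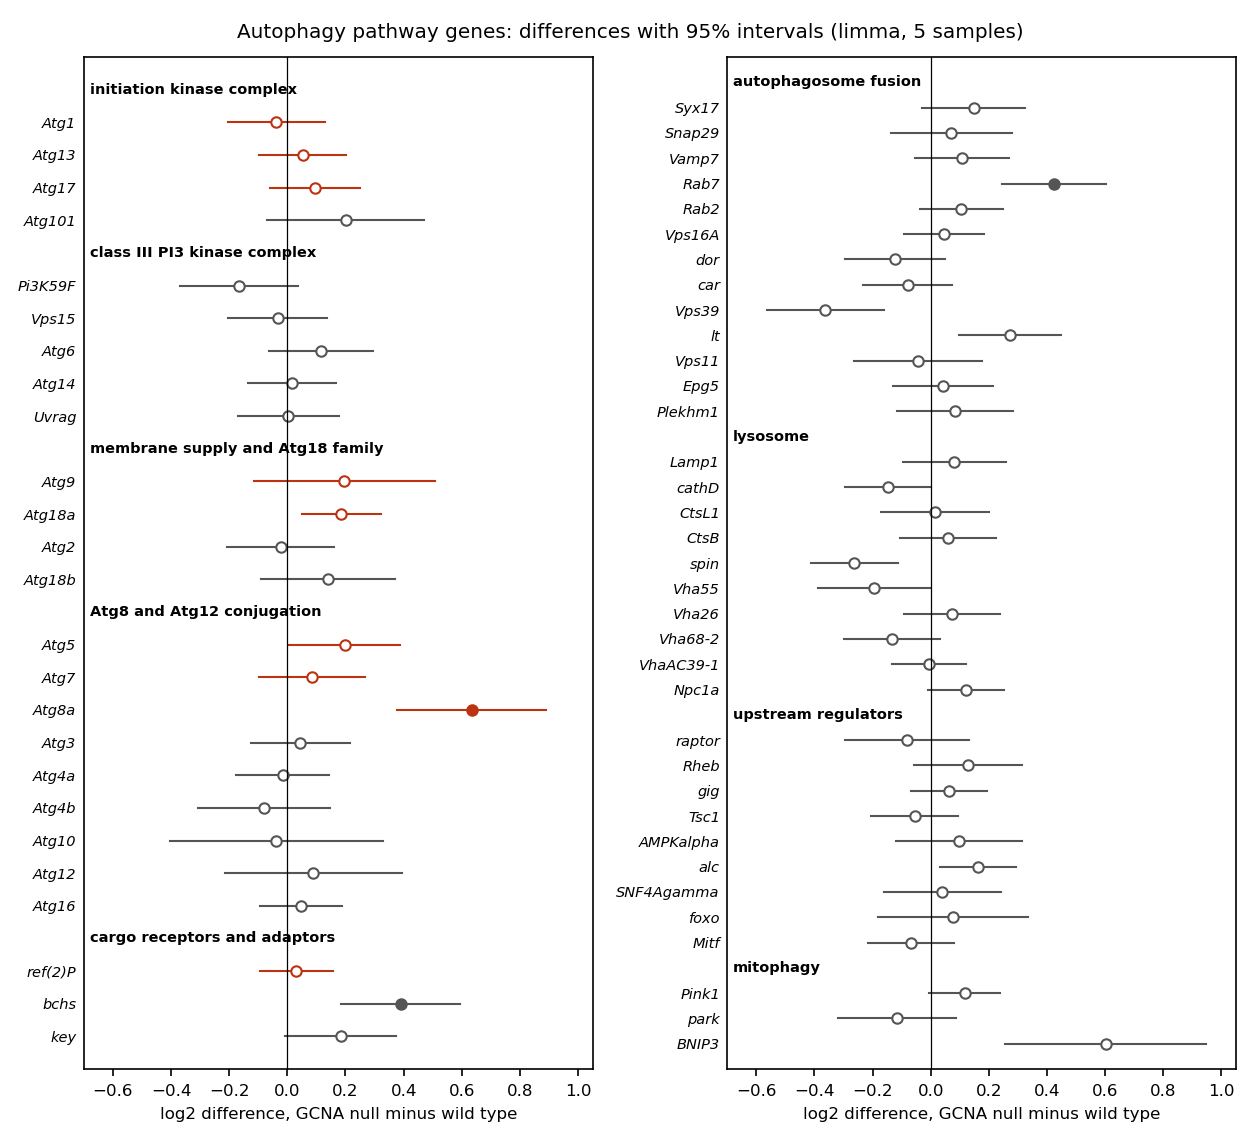
Log2 difference, GCNA null minus wild type (x axis), of the autophagy genes (red) and other pathway genes (grey) by role, with 95% intervals from limma on 5 samples and filled circles where the adjusted p is under 0.05. Atg8a, Rab7 and bchs are filled, most other intervals cross 0, and 1 tested gene among the upstream regulators is not drawn.

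The partners of the 9 genes showed no call in most roles. Over all rows 6.37% were called with limma, 12.8% with DESeq2 and 16.6% with 6 separate samples. Before adjustment 23.1% had a limma p under 0.05. Counts in the short lists here and below are therefore no result about a role. Among the other conjugation genes 0 of 6 passed with limma, edgeR, DESeq2 or 6 separate samples, and none had an unadjusted p under 0.05 with limma. Atg16, the scaffold that carries Atg5 and Atg12, had a log2 difference of 0.05, and Atg4b, a protease that processes Atg8, one of -0.08. Atg101, the remaining member of the initiation complex, had 1550, 1445 and 1426 normalized counts in wild type and 1878, 1949 and 1499 in GCNA null libraries, a log2 difference of 0.20 (SE 0.11) carried by GCNA null replicates 1 and 2. In the class III PI3 kinase complex 0 of 5 passed by these same tests, none with an unadjusted p under 0.05 with limma, and Vps15 (listed as ird1) and Uvrag had log2 differences of -0.03 and 0.00. Of Atg2, which transfers lipid to the membrane, and Atg18b neither passed by these tests, at -0.02 and 0.14, and neither had an unadjusted p under 0.05 with limma.

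The downstream and upstream steps held few calls, and these counts are likewise no result about the steps. Among 13 genes of autophagosome fusion Rab7 alone was called with limma, and the median log2 difference was 0.07. Of 10 lysosomal genes 0 passed with limma or edgeR and 1 was lower with DESeq2 and with 6 separate samples, and 2 had an unadjusted p under 0.05 with limma. Cp1, the cathepsin L gene and the most abundant of them, had 25862 ± 842 and 26153 ± 1877 normalized counts, and Vha26, a subunit of the proton pump that acidifies lysosomes, 21207 ± 311 and 22329 ± 1462, at log2 differences of 0.01 and 0.07. Of 10 upstream regulators 0 passed with limma, edgeR or DESeq2, 1 was higher with 6 separate samples, and 1 had an unadjusted p under 0.05 with limma. Mitf, a transcription factor of lysosomal and autophagy genes, and SNF4Agamma, a subunit of the AMP-activated kinase, had log2 differences of -0.07 and 0.04.

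Of 3 mitophagy genes tested, 0 passed with limma or edgeR and 1 was higher with DESeq2 and with 6 separate samples, and 1 had an unadjusted p under 0.05 with limma. That gene was BNIP3 (listed as CG5059), a receptor for mitochondria, with 1948, 2021 and 1501 normalized counts in wild type and 2949, 3005 and 2529 in GCNA null libraries. Its groups did not overlap, and its log2 difference was 0.60 (SE 0.14, limma adjusted p = 0.064). Pink1, the kinase that marks damaged mitochondria, had a difference of 0.12 on the log2 scale (SE 0.05, limma adjusted p = 0.23). The fusion genes lt and Vps39 and the lysosomal gene spin, chosen after their values were seen, had log2 differences of 0.27, -0.36 and -0.26 (limma adjusted p = 0.086, 0.059 and 0.063) and were called with DESeq2 and with 6 separate samples.

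**Figure D4:**
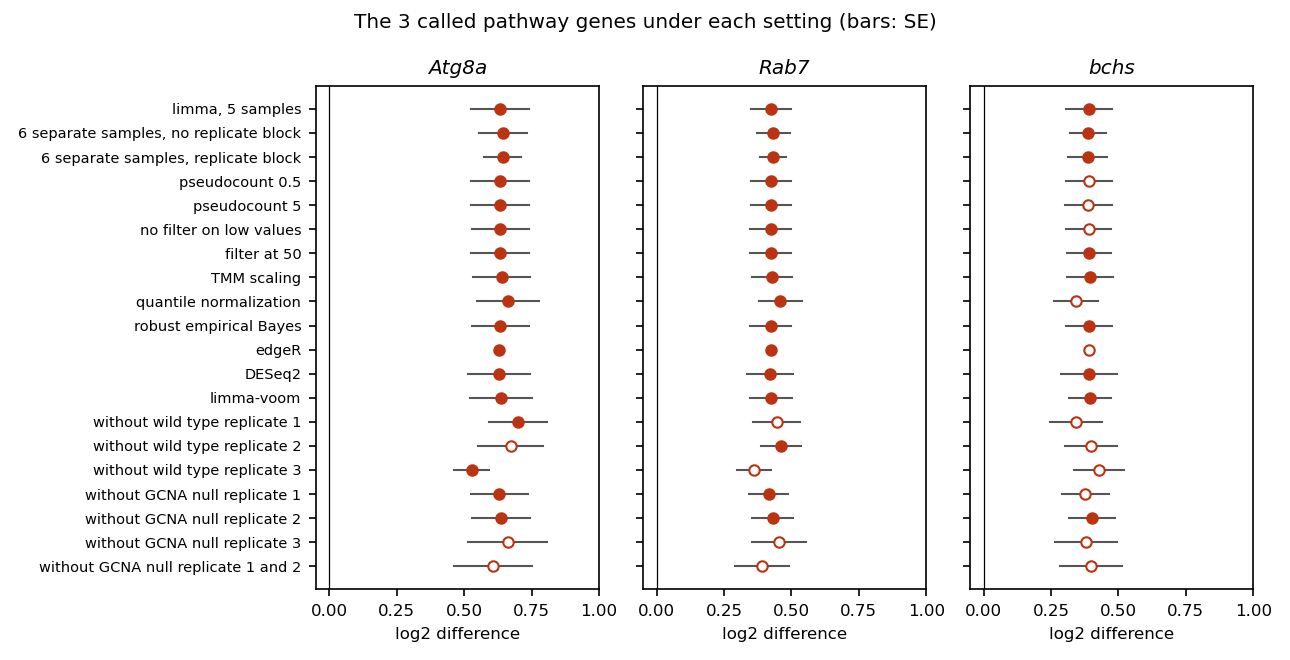
Log2 difference, GCNA null minus wild type (x axis), of Atg8a, Rab7 and bchs under each setting of the analysis (rows), with bars of 1 SE where the tool gives one and filled circles where the adjusted p is under 0.05. The log2 difference of Atg8a stays between 0.53 and 0.70, that of Rab7 between 0.36 and 0.46 and that of bchs between 0.34 and 0.43.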

How the data were processed

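Total RNA of 18 nt and longer was depleted of ribosomal RNA and made into strand-specific libraries, per the labels' protocols. The submitters' processing notes name the dm6 assembly with the tools STAR 2.5, CASAVA 1.8.2 and DESeq2; annotation, counter and the strandedness of counting were not given in the sources used here. As deposited, the values are signal: counts of reads divided by 1 size factor per library by the authors, as the values show (100% are whole multiples of 1 step, within 1e-06).

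Rows were matched by symbol or synonym (12857 of 13216) to the Ensembl BDGP6 annotation, the dm6 assembly. In R 4.3.3, limma 3.58.1 (trended empirical Bayes, no block) was fitted on log2(normalized count + 1), which understates changes of scarce RNAs. Rows needed 10 or more normalized counts in 3 or more libraries. p-values are two-sided, Benjamini-Hochberg adjusted over all 10132 rows. Scripts were tested on simulated data. Alternatives were other pseudocounts, filters and scalings, 6 separate samples, a replicate block, libraries left out, robust empirical Bayes, and edgeR 4.0.16, DESeq2 and limma-voom on recovered reads (edgeR called 458 rows higher and 195 lower, limma 431 and 214). Members and lists were chosen with earlier results of these data known. Named genes are the members, other list genes that passed and, where none did, the 2 most abundant of a list. Replicate numbers were not used to pair samples in the limma fit on 5 samples.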

Additional observations from a re-analysis of the deposited data

How the results depend on the processing

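Atg8a kept a positive log2 difference in all 19 other settings (0.53 to 0.70) and passed in 16, with adjusted p from 1.9e-06 to 0.15. It was 0.67, 0.66 and 0.61 in the 3 settings that ended the call, without wild type replicate 2, GCNA null replicate 3, and GCNA null replicates 1 and 2. Settings with 1 GCNA null sample assume that it varies like the wild type samples. The count of autophagy genes called higher was 1, 2 with 6 separate samples and with DESeq2, and 0 to 1 with libraries left out; none was lower in any setting. Atg1 turned to 0.0051 without wild type replicate 1 (-0.091 to 0.0051 with single libraries left out) and Atg9 to -0.0066 without GCNA null replicate 3 (-0.0066 to 0.25). Of the other pathway genes 2 were higher, 5 with 6 separate samples, 4 with a replicate block or DESeq2, 1 with either other pseudocount, no filter, quantile normalization or edgeR, and 0 to 2 with libraries left out. None was lower, against 2 with 6 separate samples, the block or DESeq2, 1 with robust empirical Bayes or limma-voom, and 0 to 1 with libraries left out. Over all rows tested 431 were higher and 214 lower, 935 and 749 with 6 separate samples, 755 and 542 with DESeq2, 222 to 426 and 67 to 277 with single libraries left out, and 94 and 52 without GCNA null replicates 1 and 2.

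With the replicate number as a block on 6 samples 640 rows were higher and 477 lower, and Atg18a was no longer called. Deviations of same-numbered samples from their group means had correlations of -0.18, 0.073 and -0.094. Since GCNA null replicates 1 and 2 are nearly alike, these values cannot show whether same-numbered samples were handled together. Each of the 9 genes had at least 1113 reads in a library, where counting error alone gives a CV of at most 3.00%.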
